A study of Mus musculus with 5 samples.

Results

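The transcripts described here are 9 genes of classical and non-classical antigen presentation: 7 heavy chains of the major histocompatibility complex (MHC) class I (H2-K1, H2-D1, H2-Q4, H2-Q6, H2-Q7, H2-T22 and H2-T23), their shared light chain B2m, and the transactivator Nlrc5. They were taken by name, 9 of 20448 mouse genes with at least 1 UMI (a unique molecular identifier, here 1 counted transcript molecule) in the cells kept. All 9 were found in each of the 5 libraries. The libraries are droplet-based single-cell RNA-seq (10X Chromium) of cells digested from adult mouse trachea, and all 5 carry the strain label 129 X1/S1.

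Both recipients were wild-type mice given 2% polidocanol, a detergent that strips the airway epithelium, into the trachea, followed after 5 hours by 6e6 iBCs, basal cells made from mouse embryonic stem cells. 1 recipient was taken on day 40 and the other on day 56, so day and animal cannot be told apart. From each recipient, live cells (Calcein Blue+) were sorted into a GFP+ library, here donor-derived, and a GFP- library, called endogenous, which gives n = 2 libraries in each group. As control served 1 trachea with neither injury nor transplantation, sorted on Calcein Blue alone. The control therefore differs from the recipients in injury, transplantation, sort gate, animal and library at once, and these cannot be told apart. Before filtering, the libraries held 16580940 to 25569394 UMIs. The lowest total was that of the control, where 192 of 808 barcodes were left out for their share of human UMIs. Such barcodes were found in no other library, a further way in which the control differs. The cells kept held 7396581 UMIs in the control and 17239680 to 25354119 in the recipient libraries. After filtering, 1300 and 1219 endogenous cells, 1693 and 1731 donor-derived cells (day 40 and day 56) and 611 control cells were kept, with median depths of 9999 to 12783 UMIs per cell, and no pair of libraries shared more than 2 barcodes.

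MHC class I molecules display short peptides from inside the cell to CD8+ T cells and also engage receptors of natural killer cells. Each classical molecule is a heavy chain that reaches the cell surface stably only with B2m and a peptide. Such peptides are cut by proteasomes, among them the immunoproteasome, and carried into the endoplasmic reticulum by TAP. Nlrc5 is the transactivator that binds, through a complex on the promoters, to class I genes, and interferon gamma raises Nlrc5, the heavy chains and B2m in epithelial cells. H2-K1 and H2-D1 are classical, polymorphic heavy chains. H2-Q4, H2-Q6, H2-Q7, H2-T22 and H2-T23 belong to the non-classical families: H2-Q6 and H2-Q7 encode Qa-2 molecules, H2-T23 encodes Qa-1, and H2-T22 is a ligand of a set of gamma delta T cells.

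In GRCm38 with the GENCODE annotation, B2m (ENSMUSG00000060802) is at chr2:122147686-122153083 and Nlrc5 (ENSMUSG00000074151) at chr8:94434356-94527272, both on the plus strand. The 7 heavy chains lie in the MHC on chromosome 17, from H2-K1 (chr17:33996017-34000347) through H2-D1 (chr17:35262730-35267499), H2-Q4 (chr17:35379617-35385290), H2-Q6 (chr17:35424850-35430055) and H2-Q7 (chr17:35439155-35443773) to H2-T23 (chr17:36029773-36032855) and H2-T22 (chr17:36037128-36042747). H2-Q6 and H2-Q7 are neighbours in this order. Promoter windows from RefSeq (GRCm38.p6) matched 8 of the 9 genes, all but Nlrc5. The following 5 stretches are shown because these genes carry the main differences: B2m, the classical pair, and the Qa-2 pair whose levels came apart between donor-derived and endogenous cells. Each runs 5′ to 3′ on the gene's own strand (chr2:122147543-122147643 for B2m, chr17:34000354-34000462 for H2-K1 on the minus strand, chr17:35262919-35263050 for H2-D1, chr17:35424673-35424804 for H2-Q6 and chr17:35439018-35439148 for H2-Q7). Capitals mark matches on either strand to a kappa B motif (GGGATTCCC), an interferon-stimulated response element (GAAANNGAA, or the form GAANNGAAA where the former had no match beside it), an X2-like element (TGACG) and CCAAT.
B2m: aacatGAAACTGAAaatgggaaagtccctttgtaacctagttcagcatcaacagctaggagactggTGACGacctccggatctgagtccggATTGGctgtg
H2-K1: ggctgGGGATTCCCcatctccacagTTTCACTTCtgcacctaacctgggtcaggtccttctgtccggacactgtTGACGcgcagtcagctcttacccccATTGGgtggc
H2-D1: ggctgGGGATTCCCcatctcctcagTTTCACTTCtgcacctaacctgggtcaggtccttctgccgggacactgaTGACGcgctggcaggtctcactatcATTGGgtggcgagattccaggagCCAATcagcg
H2-Q6: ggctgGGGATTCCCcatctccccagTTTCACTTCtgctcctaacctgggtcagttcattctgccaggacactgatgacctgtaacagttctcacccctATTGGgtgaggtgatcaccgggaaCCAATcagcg
H2-Q7: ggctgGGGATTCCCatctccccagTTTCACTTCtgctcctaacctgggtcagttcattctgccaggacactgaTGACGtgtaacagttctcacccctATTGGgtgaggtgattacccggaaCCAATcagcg

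The kappa B motif was found in H2-K1, H2-D1, H2-Q6 and H2-Q7, and in 0.353% of 32851 promoter entries of the same length. The response element was found as GAAANNGAA in B2m, H2-T22 and H2-T23 (8.56% of entries) and as GAANNGAAA in the 5 H2-K, H2-D and H2-Q genes (7.52% of entries). TGACG was found in all but H2-Q6 and H2-T23 (20.8% of entries), so H2-Q6 and H2-Q7 differ in this window by that match. CCAAT was found in all 8 (37.4% of entries). These matches are letters in a window of the reference genome, not measured binding.

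Heavy chains share sequence, and this bears on how a read is assigned. Over the last 500 bases of their transcripts, 42.9% of the 50-base words of H2-Q6 also occurred in another gene, mostly H2-Q7, and 26.9% of its 90-base words did. For H2-T22 the shares were 31.6% and 13.2%, all with H2-T10. H2-Q7 shared 9.77% and 3.87%, and H2-K1 shared 11.8% and 2.31%. B2m and Nlrc5 shared 0. H2-Q4 shared 27.5% and 7.3%, H2-D1 18.8% and 8.93%, and H2-T23 17.9% and 4.4%. Counts of the heavy chains, above all of H2-Q6 and H2-T22, are therefore less certain than those of B2m. The reference is the C57BL/6 strain and the mice are 129, so alleles may differ from the reference in the bases that decide an assignment. The strain of the embryonic stem cells has no label of its own, and the effect of haplotype on these counts was not tested.

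Cells were grouped by expression into basal-like, secretory-like and ciliated-like epithelium, with all H2 genes, B2m and Nlrc5 left out of the genes that formed the clusters. All markers of each class had at least 1 UMI in the class sum of each library (10 basal, 12 secretory and 10 ciliated), which is a weak check of the names. Control, endogenous and donor-derived libraries held 62, 362 and 208, and 763 and 1112 basal-like cells. Of the donor-derived ones, 98 on day 40 and 654 on day 56 lay in a cluster led by Sftpc. It had 0 basal markers among its 10 leading genes and was named by its marker score alone. Names only with a leading marker left 622 and 446 donor-derived basal-like cells. In the same order the libraries held 364, 350 and 258, and 175 and 389 secretory-like cells, and 154, 231 and 194, and 41 and 117 ciliated-like cells. Donor-derived and endogenous cells of a class lay mostly in different clusters. Of the basal-like class, for example, 333 of 362 and 200 of 208 endogenous and 58 of 62 control cells lay in 1 cluster, and most donor-derived cells in 4 others, and for the ciliated-like class 19 of 41 and 5 of 117 donor-derived cells lay in the endogenous clusters. Levels are given as scaled CPM: the UMIs of a gene relative to all UMIs of that library and class, scaled by TMM factors.

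Class I transcripts were low in the control trachea and high in both fractions of both recipients, in all 3 epithelial classes. In basal-like cells, B2m was at 126 scaled CPM in the control (84 UMIs), at 1683 and 1957 in endogenous cells and at 3648 and 2567 in donor-derived cells on day 40 and day 56. Endogenous basal-like cells thus held 13.4-fold (exact 95% interval 10.8 to 16.8, counting error only) and 15.6-fold (12.6 to 19.6) the control level of B2m, and donor-derived ones 29.1-fold and 20.5-fold. In secretory-like cells B2m was at 202 in the control, 1959 and 2317 in endogenous and 6116 and 3394 in donor-derived cells. In ciliated-like cells it was at 146, then 2049 and 2192, then 4797 and 3351. The lowest recipient value was 1683, and the highest control value was 202. The control is 1 library, so the comparison has no replicate check and no test, and both fractions are set against the same control.

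**Figure D1:**
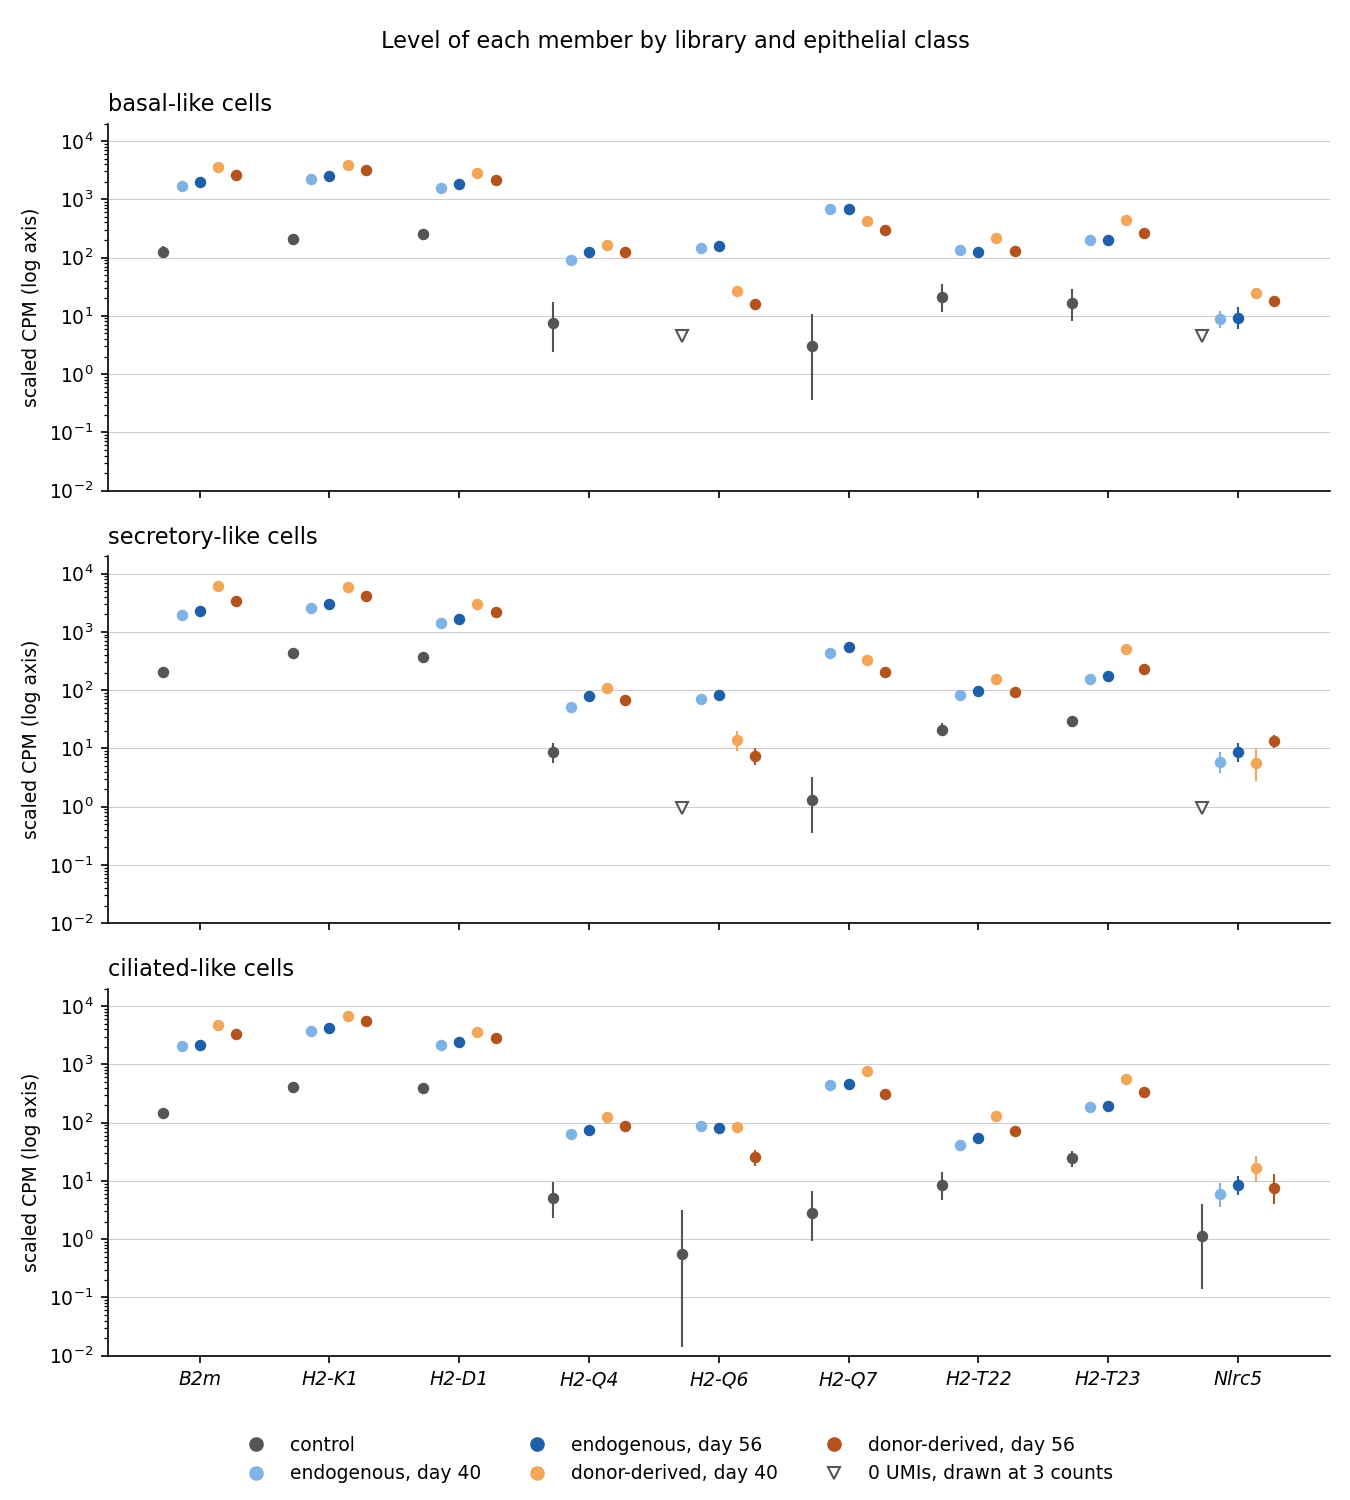
Scaled CPM (log axis) of the 9 genes in the 3 epithelial classes of the 5 libraries; bars are exact Poisson 95% intervals, and open triangles mark genes with 0 UMIs, drawn at the level of 3 counts. The control library lies below all 4 recipient libraries for B2m and each of the 7 heavy chains.

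The classical heavy chains showed the same order. In basal-like cells H2-K1 was at 208 scaled CPM in the control, 2210 and 2495 in endogenous and 3889 and 3149 in donor-derived cells, which made 10.6-fold (9 to 12.7) and 12-fold (10.2 to 14.3) the control in endogenous cells. H2-D1 was at 254, then 1557 and 1833, then 2780 and 2130, a difference of 6.13-fold and 7.22-fold for endogenous and 10.9-fold and 8.38-fold for donor-derived cells. H2-K1 and H2-D1 had 139 and 170 UMIs in control basal-like cells, so the classical heavy chains were present there at a low level. In ciliated-like cells H2-K1 went from 407 in the control to 3803 and 4138 in endogenous and 6806 and 5636 in donor-derived cells. In secretory-like cells H2-K1 was at 428, then 2530 and 3058, then 5999 and 4131, and H2-D1 at 364, then 1423 and 1690, then 3012 and 2202.

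The H2-Q genes were close to undetected in the control. H2-Q7 had 2 UMIs in control basal-like cells (2.99 scaled CPM) and stood at 670.3 and 686 scaled CPM in endogenous and 419.8 and 298 in donor-derived basal-like cells. The ratio of endogenous to control was 224 (62 to 1853) on day 40 and 229.5 (63.4 to 1897) on day 56, wide intervals that come from those 2 UMIs. H2-Q6 had 0 UMIs in control basal-like cells and was at 147 and 160.0 in endogenous cells, at least 32.8-fold and 35.7-fold higher against a floor of 3 counts. In donor-derived basal-like cells H2-Q6 was only at 26.7 and 15.8, at least 5.95-fold and 3.52-fold higher. H2-Q4 was at 7.47 (5 UMIs) in the control, 90.7 and 126 in endogenous and 165 and 124 in donor-derived basal-like cells, a ratio of 12.1 (5.16 to 37.6) for endogenous cells on day 40. The 3 H2-Q genes thus followed B2m in direction against the control in basal-like cells, with H2-Q6 set apart by its low donor-derived level.

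Of the H2-T genes, H2-T23 was at 16.4 scaled CPM in control, 204 and 199.8 in endogenous and 442 and 261 in donor-derived basal-like cells. H2-T22 was at 20.9, then 135 and 123, then 217 and 129.9, with ratios to the control of 6.45 and 5.89 in endogenous cells. Nlrc5 had 0 UMIs in control basal-like cells and 36 and 22 UMIs (8.87 and 9.31 scaled CPM) in endogenous ones, at least 1.98-fold and 2.08-fold higher. It was at 24.5 and 18.2 in donor-derived basal-like cells, at least 5.47-fold and 4.07-fold higher. A transactivator of low abundance is measured poorly in 62 control cells, and the level that 3 counts would give there is not far below that of endogenous cells.

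A gene was counted as higher than the control where both recipients were at least 2-fold above it, at a mean of 20 scaled CPM and with 10 counts. Among all genes tested, 1.62% were counted so in endogenous basal-like, 1.26% in secretory-like and 1.1% in ciliated-like cells, and 7.13%, 5.07% and 2.83% in donor-derived ones. Of the 9 genes, 8 were tested and 8 counted as higher in each endogenous class, with Nlrc5 below the level minimum. In donor-derived cells 7 of 7 were counted in basal-like and secretory-like cells, where H2-Q6 and Nlrc5 were below the minimum, and 8 of 8 in ciliated-like cells. B2m, H2-K1 and H2-D1 passed the minimum in the control itself in all 3 classes. The H2-Q genes in all 3 classes, H2-T23 in basal-like and H2-T22 in ciliated-like cells were under 20 scaled CPM in the control and passed through the recipients alone. Their part of the count follows from the filter, and the counts are given as a description.

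The difference was spread over the cells of each class. With each cell thinned to 5000 UMIs, the median B2m count per basal-like cell was 0 in the control (10th to 90th percentile 0 to 2, highest 3), 7 (1 to 16) and 9 (5 to 16) in endogenous and 19 (11 to 28) and 12 (7 to 20) in donor-derived cells. Of the basal-like cells, 74.2% and 95.6% in the endogenous and 99.9% and 98.8% in the donor-derived libraries held more B2m than the highest control cell. The corresponding shares were 51.9% and 73.3% against 99.4% and 89.9% in secretory-like cells, and 77.6% and 90.5% against 100% and 99.1% in ciliated-like cells. The 7 heavy chains summed had a median of 2 UMIs in control basal-like cells, 19 and 27 in endogenous and 41 and 30 in donor-derived ones. In each class the endogenous library of day 40 thus held the most cells inside the control range. H2-Q7 was seen in 0 of 62 control basal-like cells thinned to 2000 UMIs, which allows a share of up to 4.84% (3 cells) with a UMI at that depth, in 55.8% and 69.7% of endogenous and in 52.3% and 40% of donor-derived ones. Without thinning the shares were 3.23%, 80.1% and 98.1%, and 92.7% and 79.9%. No cell type that should lack class I transcripts was at hand as a background for these shares.

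**Figure D2:**
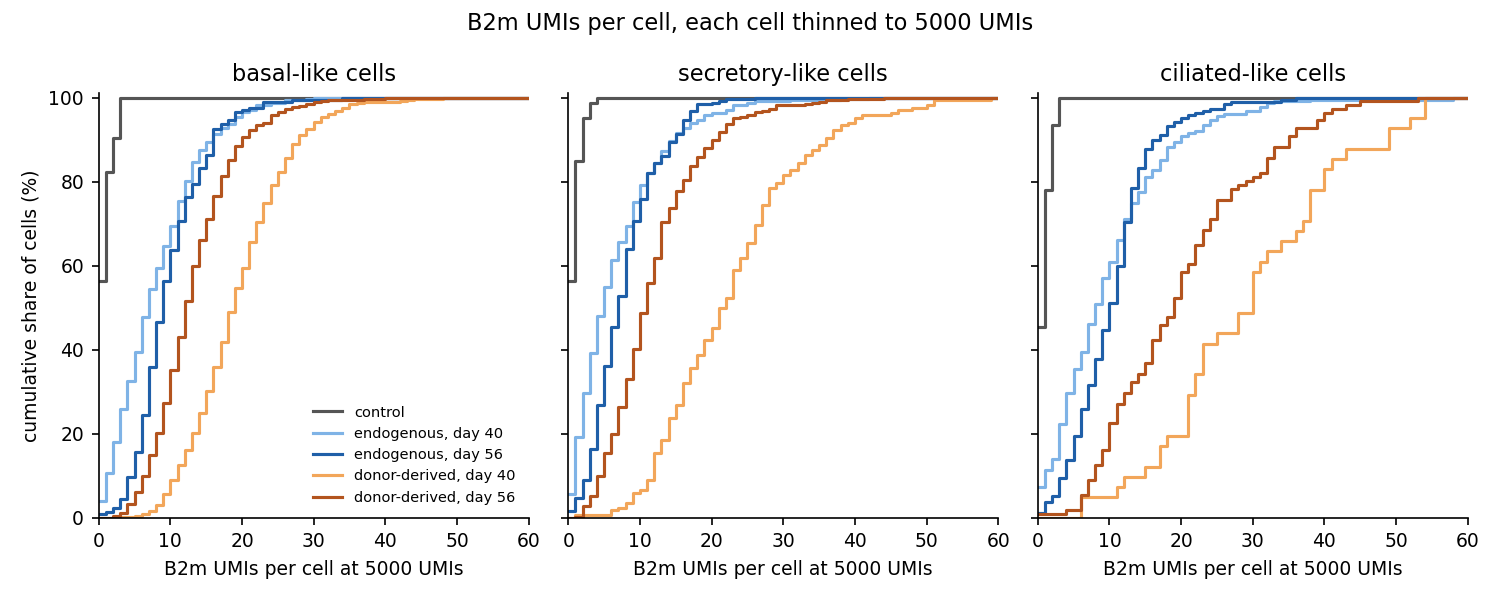
Cumulative share of cells (%) against B2m UMIs per cell after thinning each cell to 5000 UMIs, by class and library. Control cells end at 3 or 4 UMIs, while the donor-derived curves lie farthest to the right, with day 40 to the right of day 56.

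Leukocytes carry much class I, so their markers are given beside these values. In basal-like cells the 6 pan-leukocyte genes summed to 41.8 scaled CPM in the control (2 of 6 with a UMI, with Ptprc, Laptm5, Coro1a and Cd52 at 0), 52.0 and 42.3 in endogenous and 77.3 and 46.0 in donor-derived cells, against 6859 and 7156 in the leukocyte-like cells of the endogenous libraries. In secretory-like cells the sums ran from 82.8 to 100.7 with 90.4 in the control, and in ciliated-like cells from 27.7 to 95.4 with 44.0 in the control. The 10 T and NK cell genes summed to at most 2.17 in basal-like and secretory-like cells, and in ciliated-like cells to 1.13 in the control, 13.1 and 17.6 in endogenous and 21.7 and 11.8 in donor-derived cells, against 1148 and 1826 in leukocyte-like cells. The pan-leukocyte and the T and NK cell sums stayed far below those of leukocytes in every epithelial class. The 9 macrophage genes did not. They summed to 3944 scaled CPM in control and 5794 and 13598 in endogenous secretory-like cells, against 1704 and 2908 in leukocyte-like cells. In ciliated-like cells they summed to 1687 in the control and 1898 and 3903 in endogenous cells. The basal-like and the donor-derived sums lay below those of leukocyte-like cells. Of the 9, Adgre1, Mrc1 and Fcgr1 had 0 UMIs in control and endogenous secretory-like cells. Lyz2 was among the 10 leading genes of a secretory-like cluster that held 256 control cells. The part of each macrophage gene in the high sums was not tested. B2m was at 2148 and 2518 in the leukocyte-like cells themselves, below the donor-derived epithelial values of the day 40 recipient.

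Donor-derived cells were then compared with endogenous cells of the same class, 2 libraries against 2, with edgeR's quasi-likelihood test, Benjamini-Hochberg adjustment over all genes and a threshold of 0.05. The outcome differed by gene: H2-Q6 and H2-Q7 were lower in donor-derived basal-like cells, Nlrc5 was higher there, and B2m, H2-K1, H2-D1 and H2-T23 passed the test in some classes, always as higher. Of all genes tested, 8.86% passed in basal-like, 15.3% in secretory-like and 3.85% in ciliated-like cells. With the recipient as a block, 1974 genes passed in basal-like cells against 1049 without it. Of the 9 genes, 1 rose (3.22% of all genes did) and 2 fell (5.64%) in basal-like cells, 2 rose (6.49%) and 1 fell (8.77%) in secretory-like cells, and 2 rose (1.92%) and 0 fell (1.93%) in ciliated-like cells. The median log2 fold change of the 9 was 0.49, 0.54 and 0.72, against 0.0016, -0.0077 and 0.0052 over all genes tested. Scaling by library size alone moved the median of all genes to 0.12, 0.12 and 0.10, and the fold changes given are relative to a median near 0. With that scaling the calls split into 509 higher and 581 lower in basal-like cells (381 and 668 with TMM), 997 and 756 in secretory-like (705 and 952) and 235 and 141 in ciliated-like cells (202 and 203).

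In all 3 classes B2m was higher in both donor-derived libraries than in both endogenous ones. The share of all genes that separate so was not counted, so this is a description. B2m passed the test in 1 class. The log2 fold change was 1.04 ± 0.24 (SE, n = 2 libraries per group) in ciliated-like cells with an edgeR adjusted p of 0.047, and of 0.084 with the recipient as a block. It was 0.73 ± 0.19 in basal-like cells (adjusted p = 0.084) and 1.17 ± 0.37 in secretory-like cells (adjusted p = 0.18). In secretory-like cells the 6116 of day 40 lay well above the 3394 of day 56, and the spread between donor-derived libraries was largest there among the 3 classes.

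H2-K1 and H2-D1 rose in donor-derived secretory-like cells, by 0.87 ± 0.20 (edgeR adjusted p = 0.022) and 0.75 ± 0.17 (adjusted p = 0.013) on the log2 scale. Both calls were lost without the endogenous library of day 40 (edgeR adjusted p = 0.128 each). In basal-like cells H2-K1 differed by 0.54 ± 0.14 (edgeR adjusted p = 0.075) and H2-D1 by 0.49 ± 0.17 (adjusted p = 0.15). In ciliated-like cells H2-K1 differed by 0.74 ± 0.21 (edgeR adjusted p = 0.0999) and H2-D1 by 0.59 ± 0.22 (adjusted p = 0.17). For both genes all donor-derived values lay above all endogenous values in each class. The share of all genes that do so was not counted, so this too is a description. With the recipient as a block, H2-K1 also passed in basal-like cells (edgeR adjusted p = 0.043).

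H2-Q6 went the other way. Endogenous basal-like cells held 147 and 160.0 scaled CPM and donor-derived ones 26.7 and 15.8, a log2 fold change of -2.90 ± 0.27 (edgeR adjusted p = 0.0042). Endogenous secretory-like cells held 70.2 and 83.1 and donor-derived ones 13.7 and 7.38, a change of -2.98 ± 0.25 (edgeR adjusted p = 1.2e-05, and with finer clusters -2.23 and 0.19). In ciliated-like cells the endogenous 89 and 79.9 overlapped the donor-derived 82.6 and 25.3 (log2 fold change -0.65 ± 0.60, edgeR adjusted p = 0.64). H2-Q7 fell in basal-like cells, by 0.96 on the log2 scale (SE 0.18, edgeR adjusted p = 0.029). It was at 438 and 548 in endogenous and 335 and 206 in donor-derived secretory-like cells (log2 fold change -0.86 ± 0.29, edgeR adjusted p = 0.16). In ciliated-like cells H2-Q7 was at 445 and 468 against 769 and 311, so the groups overlapped. H2-Q4, the third H2-Q gene, was not lower: its log2 fold changes were 0.37 ± 0.22, 0.44 ± 0.35 and 0.69 ± 0.22, none past the threshold. The fall of H2-Q7 in basal-like cells was lost without either endogenous library (edgeR adjusted p = 0.21 and 0.19).

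**Figure D3:**
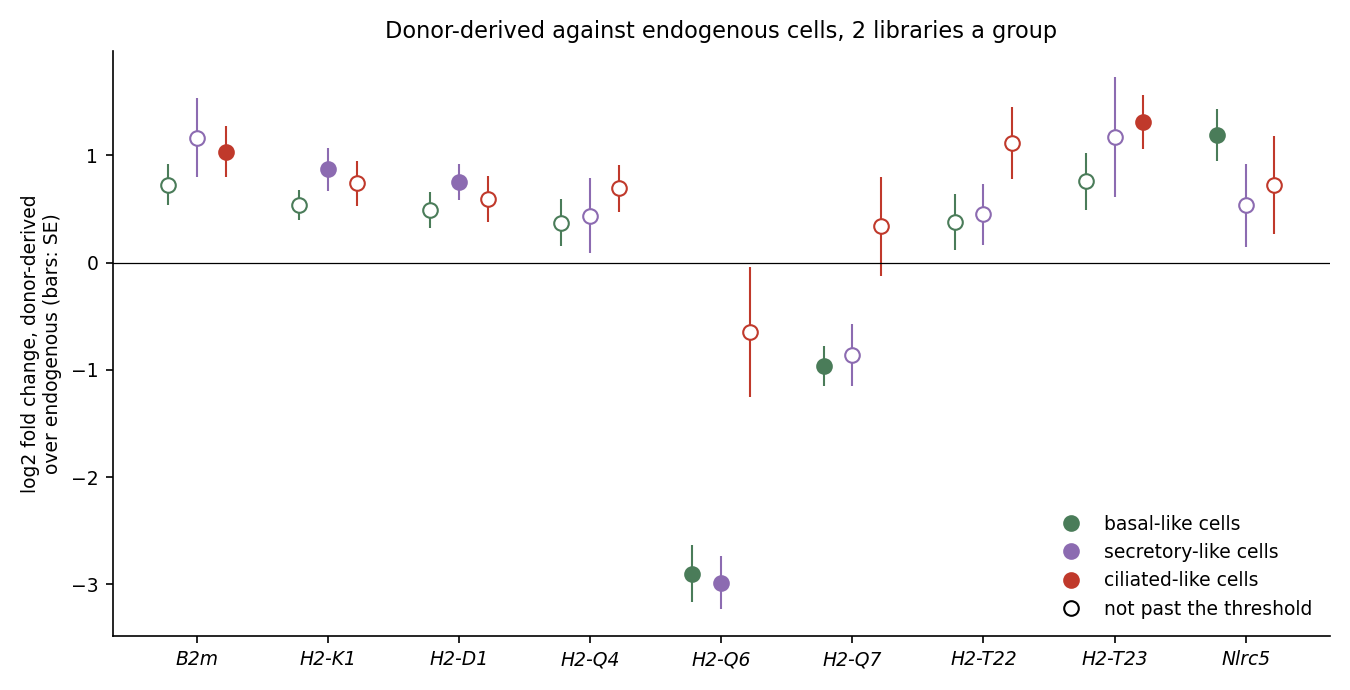
Log2 fold change, donor-derived over endogenous, with SE, for the 9 genes in the 3 epithelial classes; filled points passed the test. H2-Q6 lies near -3 in basal-like and secretory-like cells, while B2m, H2-K1, H2-D1, H2-T23 and Nlrc5 lie above 0 in all 3 classes.

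H2-T23 rose in donor-derived ciliated-like cells, by 1.31 ± 0.25 on the log2 scale (edgeR adjusted p = 0.029), from 187 and 195 scaled CPM in endogenous to 553 and 338 in donor-derived cells. It differed by 0.76 ± 0.26 in basal-like (edgeR adjusted p = 0.17) and 1.17 ± 0.56 in secretory-like cells (adjusted p = 0.39), where 506 on day 40 stood against 228 on day 56. The H2-T22 fold changes of 0.38 ± 0.26, 0.45 ± 0.28 and 1.12 ± 0.33 did not pass in any class. The calls of B2m and H2-T23 in ciliated-like cells rest on 41 donor-derived cells on day 40 and were lost without either endogenous library (edgeR adjusted p = 0.82 and 0.61 for B2m, 0.40 and 0.30 for H2-T23). The H2-T23 call was also lost without the donor-library cells that lay in endogenous clusters (edgeR adjusted p = 0.083).

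Nlrc5 rose in donor-derived basal-like cells, by 1.19 ± 0.24 on the log2 scale (edgeR adjusted p = 0.034), with 262 and 215 UMIs in the donor-derived and 36 and 22 in the endogenous libraries. In secretory-like cells it was at 5.83 and 8.67 scaled CPM in endogenous and 5.58 and 13.5 in donor-derived cells, which overlap (log2 fold change 0.54 ± 0.39, edgeR adjusted p = 0.46). In ciliated-like cells it was at 5.91 and 8.49 against 16.5 and 7.66, which also overlap. The basal-like call was lost without either endogenous library (edgeR adjusted p = 0.27 and 0.17) and with coarser clusters (adjusted p = 0.10).

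Because H2-Q6 and H2-Q7 are neighbours and part of the H2-Q6 sequence recurs in H2-Q7, the share of H2-Q6 among their joint UMIs was also taken. In basal-like cells it was 18% (exact Clopper-Pearson 95% interval 16.7 to 19.4) and 18.9% (17.2 to 20.7) in endogenous libraries and 5.97% (5.32 to 6.68) and 5.03% (4.35 to 5.78) in donor-derived ones. In secretory-like cells it was 13.8% and 13.2% against 3.93% (2.61 to 5.67) and 3.46% (2.41 to 4.8). In ciliated-like cells it was 16.7% and 14.6% against 9.7% (7.76 to 11.9) and 7.53% (5.5 to 10). Donor-derived and endogenous intervals did not overlap in any class, including ciliated-like cells, where the H2-Q6 level itself did overlap. These intervals cover counting error within a library only. Leukocyte-like cells of the endogenous libraries, at 15.9% and 16.2%, lay with the endogenous epithelium.

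The share differed between kinds of cluster within the donor libraries, and between donor and endogenous libraries within the donor-derived clusters. Donor-library cells inside clusters that are otherwise endogenous or control (54 and 15 cells) had 11.1% (9.26 to 13.2) and 14.7% (8.78 to 22.4), while donor-library cells in donor-derived clusters had 5.89% and 4.86%. Endogenous-library cells in donor-derived clusters (14 cells each) had 12.9% and 10.4%. EGFP UMIs were seen in 27.8% and 20% of the donor-library cells in endogenous clusters and in 56.7% and 46.1% of those in donor-derived clusters. In day 40 basal-like cells, the 14 donor-library cells of the endogenous cluster had H2-Q6 at 109.9 scaled CPM (29 UMIs), near the 128 and 156 of the endogenous cells there and above the 26.7 of all donor-library basal-like cells. Among endogenous leukocytes the share was highest in the B cell-like cluster, at 26.6% and 23.3%. The control held only 13 joint UMIs in its endogenous clusters, 2 of them H2-Q6. Whether a haplotype difference, a difference in read assignment or a difference in expression lies behind the share was not tested.

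**Figure D4:**
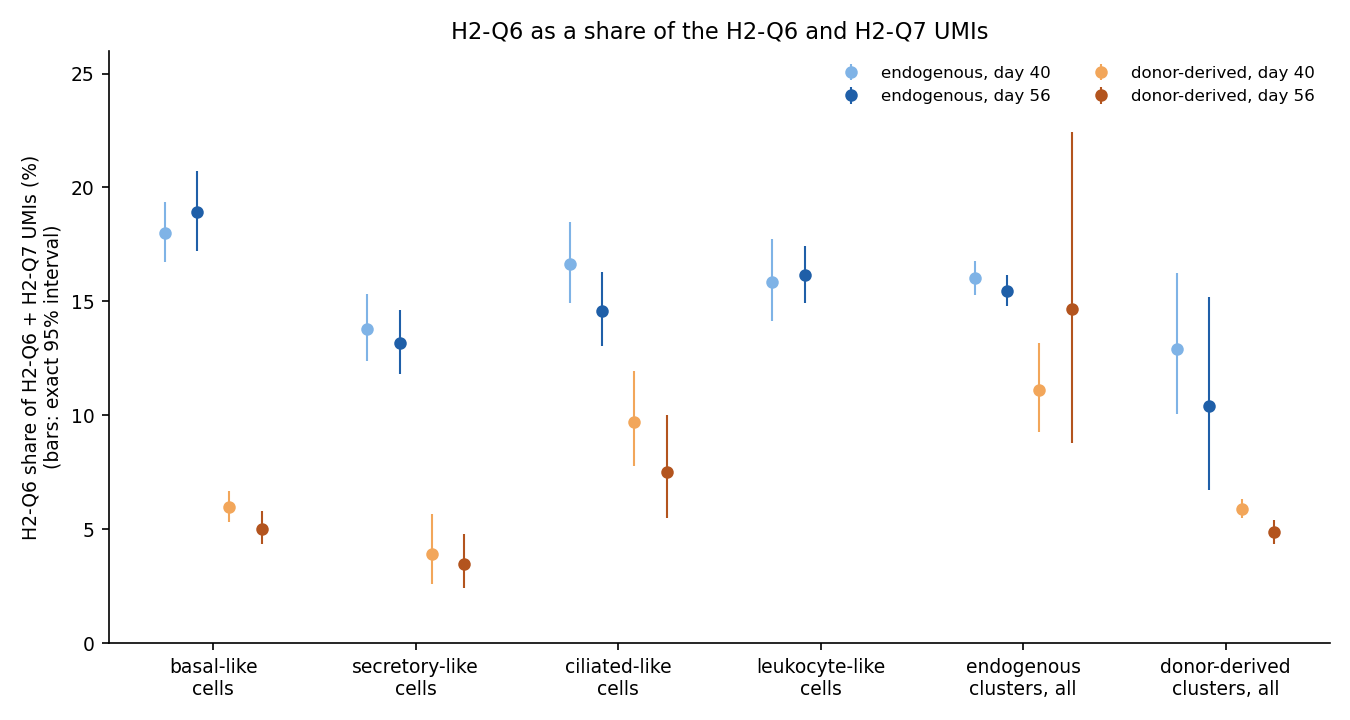
Share of H2-Q6 (%) among H2-Q6 and H2-Q7 UMIs in the 4 recipient libraries, by class and by kind of cluster, with exact 95% intervals for counting error. Endogenous values lie between 13.2% and 18.9% in the 3 epithelial classes, and donor-derived values between 3.46% and 9.7%.

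A further test asked whether the donor-derived difference was itself larger in one class than in another (an interaction term, fitted within libraries). Of all genes, 3.06% passed for ciliated-like against basal-like cells and 1.18% for secretory-like against basal-like cells. H2-Q6 passed in the first, with a log2 fold change 2.15 ± 0.27 higher in ciliated-like cells (edgeR adjusted p = 4.6e-04), and so did H2-Q7, 1.12 ± 0.23 higher (adjusted p = 0.017). After the donor-library cells in endogenous clusters were left out, both stayed past the threshold, at 1.95 (edgeR adjusted p = 1.6e-04) and 0.99 (adjusted p = 0.0027). No gene of the 9 passed for secretory-like against basal-like cells, where H2-Q6 differed by 0.037 on the log2 scale, and by 0.47 with finer clusters. The larger fold of B2m in secretory-like than in basal-like cells, 0.39 on the log2 scale, did not pass (edgeR adjusted p = 0.46).

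The recipients of day 40 and day 56 differed in a regular way that 1 animal per day cannot test. In endogenous cells, B2m, H2-K1 and H2-D1 were higher on day 56 in all 3 epithelial classes, by little: B2m was at 1683 and 1957, 1959 and 2317, and 2049 and 2192 scaled CPM. In donor-derived cells the same 3 genes were lower on day 56 in all 3 classes. H2-T23 in donor-derived cells went from 442 to 261 in basal-like, from 506 to 228 in secretory-like and from 553 to 338 in ciliated-like cells. The 2 fractions of the recipients were therefore farther apart on day 40 than on day 56 for B2m, H2-K1 and H2-D1 in each class.

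Most donor-derived cells outside the named classes lay in 2 clusters that were left unnamed. A cluster led by Cldn18, Upk3a and Clu (477 and 81 donor-derived cells) had B2m at 7573 and 4588 scaled CPM, H2-K1 at 8211 and 5878 and H2-D1 at 4793 and 3707, above all 3 named donor-derived classes of the same library. A cluster led by Ccl9 and Spib (216 and 27 donor-derived cells) had B2m at 6520 and 5260, and the 9 and 8 endogenous cells that fell into it had 4408 and 4077. In these few endogenous cells H2-Q6 was at 263 and 92, against 51.3 and 30.2 in the donor-derived cells of the same cluster. Among the donor-derived basal-like clusters, the one led by Cxcl10, an interferon-induced chemokine, had Nlrc5 at 32.1 and 37.9 and B2m at 4070 and 3212. The cluster with the lowest B2m had 14.7 and 10.9 for Nlrc5 and 2692 and 2253 for B2m. It was picked by its B2m, so its lower B2m follows from the choice. A cluster led by the hillock keratins Krt13 and Krt6a had B2m at 89.9 in the control and at 2141 and 2364 in endogenous cells. H2-Q7 was at 0 in its control cells and at 1042 and 1070 in its endogenous cells. The control part of this cluster is only 14 cells, fewer than were required of a class, so its difference from the control is a description. High class I levels in the recipients were thus also seen outside the 3 named classes, with little control material to compare them with.

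Within the endogenous libraries, the cell classes were compared with basal-like cells of the same libraries (n = 2 libraries). These classes differ in most genes, so calls are common: 28.4% of genes passed for secretory-like, 55.3% for ciliated-like and 54.5% for leukocyte-like cells. For secretory-like cells 1896 of 3672 calls were higher, and with scaling by library size alone 765 of 7258. The non-classical heavy chains were lower in secretory-like cells, H2-Q6 by -1.02 ± 0.12 (edgeR adjusted p = 2.3e-06), H2-Q4 by -0.76 ± 0.12 (adjusted p = 9.6e-05), H2-T22 by -0.56 ± 0.13 (adjusted p = 0.0021), H2-Q7 by -0.48 ± 0.10 (adjusted p = 0.0012) and H2-T23 by -0.33 ± 0.11 (adjusted p = 0.028, and 0.15 with finer clusters) on the log2 scale. B2m and H2-K1 were 0.22 and 0.23 higher there without passing, and with scaling by library size alone they turned to -0.41 and -0.39 and passed as lower (edgeR adjusted p = 0.0025 and 0.0031). With DESeq2 (0.21 and 0.22, adjusted p = 0.011 and 0.018) and with finer clusters (0.30 and 0.29, edgeR adjusted p = 0.014 and 0.018) both passed as higher, so their direction there depends on the scaling. Of the 3 named epithelial classes, ciliated-like cells had the highest endogenous H2-K1, 0.74 ± 0.09 above basal-like cells (edgeR adjusted p = 9.3e-07), and H2-D1 was 0.42 ± 0.09 higher (adjusted p = 6.1e-04). Their H2-T22, at 42 and 55.3 scaled CPM against 135 and 123, was lower by -1.43 ± 0.14 (edgeR adjusted p = 3.0e-08). The H2-Q genes were lower in ciliated-like cells too, H2-Q6 by -0.87 ± 0.12 (edgeR adjusted p = 4.6e-06), H2-Q4 by -0.66 ± 0.13 (adjusted p = 1.9e-04) and H2-Q7 by -0.58 ± 0.10 (adjusted p = 6.8e-05).

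Leukocyte-like cells, among which T and NK cells recognise class I, exceeded endogenous basal-like cells in Nlrc5 and H2-T23. Nlrc5 was at 22.5 and 35.7 scaled CPM against 8.87 and 9.31 (log2 fold change 1.64 ± 0.25, edgeR adjusted p = 1.6e-05). H2-T23 was at 379.6 and 379 against 204 and 199.8 (0.92 ± 0.11, adjusted p = 4.3e-07), and B2m was 0.36 ± 0.09 higher (adjusted p = 0.0021). H2-Q4 was lower, by -0.39 ± 0.13 (edgeR adjusted p = 0.013), a call lost with DESeq2 (adjusted p = 0.087), with finer clusters (0.11) and with no replicate block (0.22). H2-K1 and H2-Q7 differed by -0.14 and 0.07 and did not pass. Within the leukocytes, H2-Q7 was at 1013 and 978 in T and NK cell-like cells, Nlrc5 at 35.3 and 47.7 in B cell-like cells, and H2-T23 at 447 and 421 in dendritic-like cells. Epcam, an epithelial gene, was seen in 93.3% of cells of the dendritic-like cluster and 54.1% of those in the cluster led by C1qa. In the other leukocyte-like clusters it was seen in 7.07% to 32.3%. Epithelial RNA in the leukocyte-like sums was not tested. Tuft-like cells had B2m at 1659 and 2059 and the fibroblast-like cells of day 56 (21 cells) at 1307, and the control held 14 tuft-like cells, too few to be compared here.

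**Figure D5:**
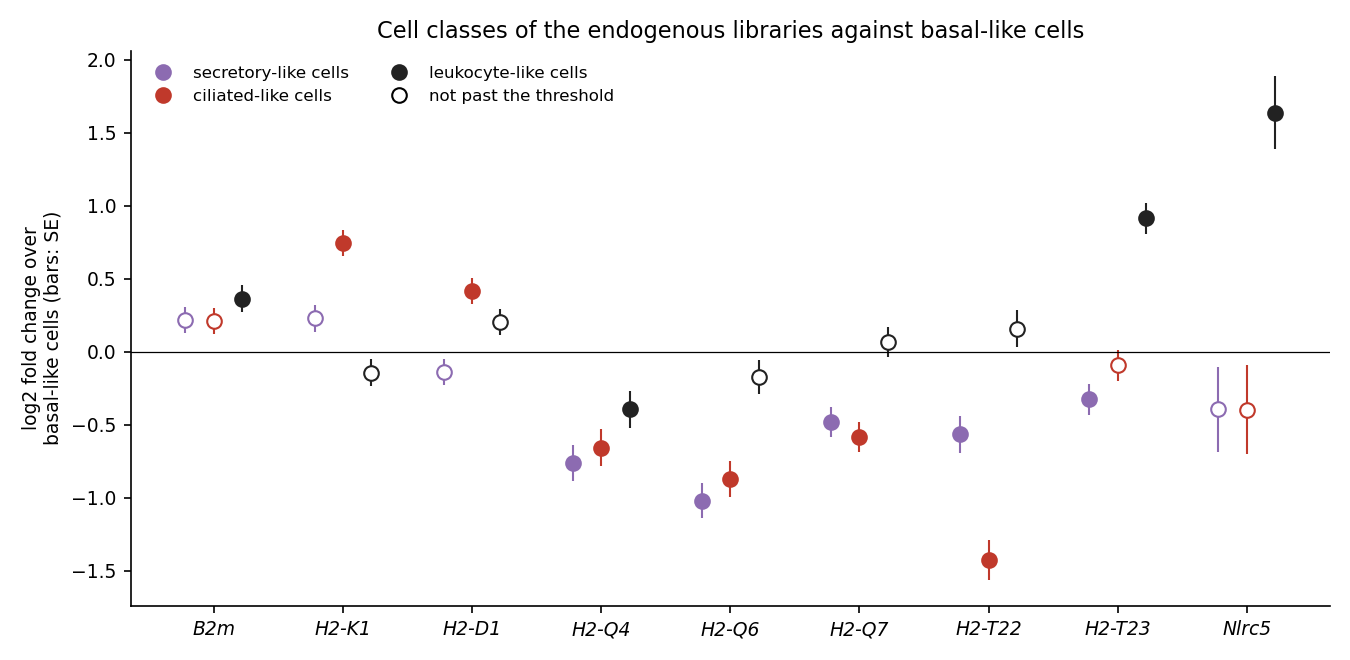
Log2 fold change over basal-like cells of the same endogenous libraries, with SE, for the 9 genes in secretory-like, ciliated-like and leukocyte-like cells. Ciliated-like cells lie at 0.74 for H2-K1 and at -1.43 for H2-T22, and leukocyte-like cells at 1.64 for Nlrc5.

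The other genes of the pathway were read from fixed lists. For peptide supply and loading (13 genes of the immunoproteasome, TAP and the loading chaperones), 6 of 13 tested were counted as higher than the control in endogenous basal-like, 5 of 13 in secretory-like and 6 of 11 in ciliated-like cells. Of all genes tested, 1.62%, 1.26% and 1.1% were counted so in these classes. The median log2 differences of the list were 0.99, 0.92 and 1.04, against 0.06, 0.03 and 0.04 over all genes tested. Tap1, a TAP subunit, was at 12.0 scaled CPM in control, 85 and 79.6 in endogenous and 270.1 and 129 in donor-derived basal-like cells. Psmb9, an immunoproteasome subunit, was at 13.4, then 176 and 158, then 385 and 211. The general chaperones differed little: Calr was at 405, then 386 and 477, then 450 and 385, and Canx at 181, then 164 and 194, then 188 and 178. The 6 genes counted in endogenous basal-like cells were Psmb8, Psmb9, Psmb10, Tap1, Tap2 and Tapbpl, of which the first 3 are immunoproteasome subunits. Among the genes counted, Tap1 and Psmb9 were under 20 scaled CPM in the control in all 3 classes. So were Tap2 and Tapbpl in basal-like and Psmb8 and Psmb10 in ciliated-like cells. There they passed the level minimum through the recipients alone, so their part of the counts follows from the filter.

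Irf1, an interferon-induced transcription factor of the class I transactivation list, was counted as higher than the control in endogenous basal-like and secretory-like cells. It was at 14.9 scaled CPM in control, 63.1 and 79.2 in endogenous and 202 and 84.3 in donor-derived basal-like cells. In basal-like cells it thus passed the level minimum through the recipients alone. Of the interferon receptor and Janus kinase genes, 0 of 7, 0 of 6 and 0 of 6 were counted in the endogenous classes. Class II genes, which present to CD4+ T cells, were counted as higher in 6 of 6 tested in each endogenous class, though they passed the level minimum through the recipients alone. Cd74, the class II invariant chain, was at 1.49 in control, 1232 and 1532 in endogenous and 4323 and 2607 in donor-derived basal-like cells. Interferon-response genes were counted in 9 of 10, 9 of 11 and 8 of 13 tested, many of them also near 0 in the control. The GTPase Iigp1 had 0 UMIs in control and was at 233 and 208 in endogenous and 896 and 442 in donor-derived basal-like cells.

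Between donor-derived and endogenous cells the calls among these list genes differed by list and class. Of all genes tested, 3.22% rose in basal-like, 6.49% in secretory-like and 1.92% in ciliated-like cells, and 5.64%, 8.77% and 1.93% fell. In basal-like cells 0 of 13 peptide supply genes passed, with a median log2 fold change of 0.69. In secretory-like cells 1 of 13, the proteasome activator subunit Psme2, rose by 0.74 (edgeR adjusted p = 0.030), and in ciliated-like cells 2 of 13 rose, Tap1 by 1.28 (adjusted p = 0.021) and Psme2 by 0.94 (adjusted p = 0.040). Beside Nlrc5, the transactivation list gave 0 calls in basal-like cells, and in ciliated-like cells Irf1 rose (1.34, edgeR adjusted p = 0.025) and Nfyb fell (-1.23, adjusted p = 0.013). The receptor list gave 0 of 9 in each class. Class II genes rose in 3 of 8 tested in basal-like cells, among them H2-Eb1 by 1.69 (edgeR adjusted p = 0.023) and H2-Aa by 1.22 (adjusted p = 0.038), in 0 of 7 in secretory-like and in 3 of 9 in ciliated-like cells. Of 21 interferon-response genes tested, 1 rose and 1 fell in basal-like, 6 rose in secretory-like and 9 rose in ciliated-like cells. Ifit3, an interferon-induced antiviral gene, rose in secretory-like cells by 1.81 (edgeR adjusted p = 1.1e-05) and in ciliated-like cells by 1.95 (adjusted p = 0.0011). Cxcl10, which leads 1 donor-derived basal-like cluster, was at 118 and 58 scaled CPM in endogenous and 698 and 184 in donor-derived basal-like cells.

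Among other class I and class I-like heavy chains, 8 were tested between donor-derived and endogenous cells. Of these, 1 fell in basal-like cells, 4 fell and 1 rose in secretory-like cells, and 0 passed in ciliated-like cells, with median log2 fold changes of -0.31, -0.54 and 0.13. The genes that fell in secretory-like cells were Mr1, which presents vitamin metabolites, Fcgrt, the neonatal Fc receptor, H2-M3 and H2-Q2, and the 1 that rose was Azgp1, with Mr1 also the 1 that fell in basal-like cells; Mr1, H2-M3, H2-Q2 and Azgp1 are named here after their values were seen. Fcgrt also pairs with B2m, and its log2 fold change was -1.73 in secretory-like cells.

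Across 26 sums of library and class, the log2 level of B2m ran with that of H2-D1 (Pearson r 0.98), H2-K1 (0.95) and H2-T23 (0.94) and less with that of H2-Q6 (0.64) and Nlrc5 (0.61). H2-Q6 and H2-Q7 ran together at 0.90. The sums share libraries and the control, so these values are a description. Among 6187 other genes, those most alike to B2m were Zbp1 (0.85), Igtp (0.84), Cd74 (0.84), Tap2 (0.82) and Irf1 (0.81). Those most alike to H2-K1 were Igtp (0.87), Irgm2 (0.83), Gbp3 (0.80), Zbp1 (0.80) and Iigp1 (0.79). Among those most alike to Nlrc5 were Tap1 (0.90), Nfkbie (0.89), Psmb9 (0.88) and Slfn2 (0.88).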

How the data were processed

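The matrices deposited by the authors give UMI counts as whole numbers for each gene and barcode, with human and mouse genes in 1 reference. Tools named in the submitters' processing notes are STARsolo, Cell Ranger and Seurat, with builds GRCh38 and GRCm38. How barcodes were called, the read length and the handling of multi-mapping reads are not given in the sources used here. The labels give the groups and days. Both fractions of a day come from 1 recipient, which pairs the libraries by design (correlation of same-day deviations 0.31 in basal-like, 0.16 in secretory-like and -0.037 in ciliated-like cells). The main fit has no block.

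Left out were barcodes with over 10% human UMIs (192, all control), those with fewer than 500 genes or with mitochondrial UMIs above 20%, and 48 Scrublet doublets. Clusters came from scanpy 1.11.5 and leidenalg 0.10.2 in Python 3.11.15 (2000 variable genes without H2 genes, B2m and Nlrc5, 30 components, 15 neighbours, resolution 1.0, seed 1). Names needed 3 detected markers, and a marker among the 10 leading genes or a score 2 times the next. The score condition was set after clusters were seen. No other class could have more leading markers, and a cluster of low depth needed a leading marker. The Krt13 cluster (94 and 110 endogenous cells) had 1 basal marker and 3 of another class among its leading genes and stayed unnamed. Counts were summed per library and class (at least 20 cells) and tested with edgeR 4.0.16 in R 4.3.3 (quasi-likelihood F-test with robust fits, TMM, filterByExpr, adjustment after Benjamini-Hochberg at 0.05). The SE is the log2 fold change, without its sign, over the square root of F. With 2 libraries a group, p-values measure the spread between 2 animals that also differ in day. In simulated basal-like data, 74 of 100 genes changed by 1 on the log2 scale and 99 of 100 changed by 2 were called. There were 10 false calls among 11829 genes tested. The simulation changed only well counted genes, gave all genes the same dispersion and had no effect of day or animal. The other classes were not simulated. Alternatives included DESeq2 1.42.0.

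Named genes are the 9, up to 4 called genes of each list by fold at 20 CPM or more, and the 5 most alike (log2 of CPM + 2). The members and lists were chosen with earlier results of these data known. 1 gene that this rule would name is not reported here.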

Additional observations from a re-analysis of the deposited data

Results flagged for a closer look

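The donor-derived difference of H2-Q6 and of H2-Q7 was not the same in ciliated-like as in basal-like cells, by the test of the difference itself. H2-Q6 differed by 2.15 on the log2 scale (edgeR adjusted p = 4.6e-04): donor-derived over endogenous was -2.90 in basal-like and -0.65 in ciliated-like cells. H2-Q7 differed by 1.12 (edgeR adjusted p = 0.017): it was -0.96 in basal-like and 0.34 in ciliated-like cells. In the ciliated-like class, 19 of the 41 cells of the day 40 donor library and 5 of the 117 of day 56 lay in clusters made mostly of endogenous cells. Without the donor-library cells of such clusters, chosen after seeing the data, the differences were 1.95 and 0.99.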

How the results depend on the processing

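H2-Q6 in basal-like cells stayed lower and past the threshold in all 14 alternatives run. Against the control, the number of members counted as higher did not change under library size alone or the other 2 clustering resolutions. With the recipient as a replicate block, 1974 genes were called in basal-like cells and 1 member in ciliated-like cells; it changed the call of H2-K1 in basal-like cells (adjusted p = 0.043), of B2m in ciliated-like cells (adjusted p = 0.084) and of no other member between donor-derived and endogenous cells. Leaving out 1 library gave 223 to 2019 genes and 1 to 8 members in basal-like, 931 to 1977 and 1 to 8 in secretory-like, and 50 to 2110 and 0 to 7 in ciliated-like cells. The lowest counts came without the endogenous library of day 40 and the highest gene counts without a donor-derived library; the lone library left is assumed to vary like the other group. Without the filter on low counts, 6 members and 1485 of 17438 genes were called in basal-like, 7 members and 2210 of 16251 genes in secretory-like and 4 members and 791 of 16543 genes in ciliated-like cells. Clusters at resolution 2.0 gave 5 basal-like members and 1158 of 11586 genes, and lost H2-Q6 in secretory-like cells (-2.23, adjusted p = 0.19). DESeq2 called 970 genes in secretory-like cells. Names only with a leading marker, chosen after seeing the data, gave 1835 genes and 7 members in basal-like cells. Without donor-library cells in endogenous clusters, also chosen after seeing the data, 1227 genes were called in ciliated-like cells, where H2-T23 lost its call (1.47, adjusted p = 0.083).

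For the difference between secretory-like and basal-like cells, 253 genes were called at resolution 2.0, 543 with no filter and 267 without those donor-library cells, and for ciliated-like cells 867 with no filter. Secretory-like against basal-like endogenous cells gave 2294 genes and 8 members with DESeq2, and 7258 genes and 9 members with library size alone, where B2m and H2-K1 turned to -0.41 and -0.39. Thinning to 5000 UMIs moved the share of basal-like cells with an H2-Q7 UMI to 73.0% and 93.6% in endogenous and 80.4% and 68.3% in donor-derived libraries. These values also changed sign. Leaving out 1 library, H2-T22 in basal-like cells ran from -0.039 to 0.71, Nlrc5 in secretory-like cells from -0.33 to 0.90 and H2-Q6 in ciliated-like cells from -1.69 to 0.090. H2-Q7 in ciliated-like cells ran from -0.51, without the donor-derived library of day 40, where it passed (adjusted p = 0.0020), to 0.87. H2-Q7 in leukocyte-like cells was -0.12 at resolution 0.5. The secretory-like minus basal-like difference of H2-Q6 was 0.47 at resolution 2.0, -0.11 at resolution 0.5, -0.011 with no filter and -0.083 without those donor-library cells, and that of Nlrc5 was 0.077 at resolution 2.0. The ciliated-like minus basal-like difference of H2-D1 was -0.017 at resolution 2.0 and -0.030 with no filter. Where no cause is given here, the cause was not tested. Depth limits Nlrc5 most, with 22 and 36 UMIs in endogenous basal-like cells.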
